A study of Mus musculus with 4 samples.

Results

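The genes described here are 10 components of the circadian clock, namely Per1, Per2, Per3, Dbp, Tef, Nr1d1, Nr1d2, Arntl, Clock and Npas2. They were taken as every probe set whose platform annotation gave exactly 1 of these symbols, which found 26 of the 45101 probe sets on the array, with 1 to 6 for each gene. The study compared transgenic mice whose aqueous humor, the fluid of the front of the eye, contained expressed myocilin, a glycoprotein that cells secrete, with control mice, in dissected eye tissue that the labels name retina. Total RNA was measured on 4 Affymetrix oligonucleotide arrays, of which 2 came from myocilin transgenic and 2 from control tissue. By their label the control arrays are technical replicates, and they were averaged and counted as 1 sample. The transgenic arrays were counted as 2 samples, although nothing in the labels says that they came from separate animals. The p-values thus rest on the spread between these arrays, which may be technical. That spread was taken for each probe set and, for the larger part, from other probe sets of similar signal. The labels give no strain, sex or age for the mice, no promoter for the transgene, and no hour of dissection or light schedule, and clock transcripts change through the day.

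The circadian clock is a feedback loop of transcription that runs in nearly every cell, the retina, cornea and other tissues of the eye among them. ARNTL, also called BMAL1, pairs with CLOCK or its relative NPAS2, binds E-box sequences and switches on the Per genes, the REV-ERB receptors Nr1d1 and Nr1d2, and the output factors Dbp and Tef. PER proteins then block that activator, while REV-ERB proteins bind RORE sequences and hold down Arntl, Clock and Npas2, so that transcripts of the activators peak roughly opposite in the day to those of the genes they drive. DBP and TEF bind D-box sequences, present among others in Per genes, and carry the rhythm on to further targets.

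These elements can be read in the DNA near the start of several of the genes, and 4 stretches are shown because they hold the E-box, D-box or RORE letters of the 2 arms that are compared below. RefSeq sequence of build GRCm38.p6, from 250 bases before to 50 after an annotated start, was matched for 9 of the 10 genes, all but Per2, in 14 windows. The 250 bases before the start are printed for Per1 (chr11:69098699-69098948, + strand), Tef (chr15:81802423-81802672, + strand) and Per3 (chr4:151044666-151044915, − strand), and a 29-base site for Arntl (chr7:113207530-113207558, + strand), all 5′ to 3′ with the match in capitals.
Per1 (E-box): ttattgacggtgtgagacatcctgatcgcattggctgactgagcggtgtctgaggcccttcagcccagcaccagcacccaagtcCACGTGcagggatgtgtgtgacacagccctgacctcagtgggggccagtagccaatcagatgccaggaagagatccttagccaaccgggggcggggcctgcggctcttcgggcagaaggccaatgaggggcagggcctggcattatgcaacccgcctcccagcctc
Tef (E-box): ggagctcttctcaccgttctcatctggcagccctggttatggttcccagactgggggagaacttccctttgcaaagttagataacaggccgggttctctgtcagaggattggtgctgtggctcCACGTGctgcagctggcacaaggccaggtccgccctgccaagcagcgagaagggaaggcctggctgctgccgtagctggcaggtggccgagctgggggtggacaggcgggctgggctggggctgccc
Per3 (D-box, 2 copies): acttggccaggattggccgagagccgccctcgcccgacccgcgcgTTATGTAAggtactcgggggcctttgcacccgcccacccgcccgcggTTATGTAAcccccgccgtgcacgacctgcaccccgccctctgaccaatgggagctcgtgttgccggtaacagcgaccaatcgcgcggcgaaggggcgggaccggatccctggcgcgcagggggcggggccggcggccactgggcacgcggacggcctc
Arntl (RORE): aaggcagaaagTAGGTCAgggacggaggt
The E-box letters searched were CACGTG, which read the same on both strands, and they begin at base -166 from 1 annotated start of Per1 and at base -127 from 1 of Tef. The D-box letters were TTATGTAA or TTACGTAA on either strand, and they begin at bases -205 and -158 ahead of Per3. The RORE letters were TAGGTCA or TGGGTCA on either strand, and they begin at base 31 of the transcript from 1 of the annotated starts of Arntl. An E-box variant, CACGTT on either strand, begins at base -28 of Nr1d1, and no printed match overlaps another. Among all 32851 windows of the same length, 7.15% held the E-box, 1.06% the D-box, 6.45% the RORE and 4.68% the E-box variant. Of the 14 windows of the 9 genes, these letters were in 3, 1, 1 and 1. The 3 windows with the E-box belonged to 2 genes, Per1 and Tef, since a window at another annotated start of Tef held it at base -138. A match is a description of the letters, and its absence from these windows says nothing about a factor.

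The deposited values are linear signal intensities, whose mean was 149 on each array once the highest and lowest 2% of values were removed. The labelled tissue was poorly represented by its markers. None of 6 rod and 5 cone genes exceeded that mean level (0 of 11), whereas all 5 corneal epithelium genes, all 6 pigment cell genes, all 5 skeletal muscle genes and all 5 fibroblast genes did, so the arrays are described as labelled retina. Signals summed over the 5 muscle genes were 14058 and 14341 on the transgenic arrays and 8247 and 8757 on the control arrays. The 6 pigment cell genes summed to 31089 and 34049 on the transgenic and 27512 and 27354 on the control arrays, and the 5 fibroblast genes to 21289 and 21526 on the transgenic and 16553 and 15348 on the control arrays. Corneal epithelium genes summed to 47865 and 52388 on the transgenic and 46563 and 45305 on the control arrays, and 4 lens genes to 413 and 416 on the transgenic and 62.5 and 95.8 on the control arrays. The 6 rod genes summed to 259 and 160 on the transgenic and 259 and 228 on the control arrays, the 5 cone genes to 254 and 215 on the transgenic and 288 and 323 on the control arrays, and 3 leukocyte genes to 1374 and 1361 on the transgenic and 1113 and 1046 on the control arrays. Some of these marker genes rose past the test. Rpe65 and Rgr of the pigment cell list rose by 1.24 and 1.06 on the log2 scale (limma adjusted p = 0.00581 and 0.00699). Kera of the fibroblast list rose by 1.54 (2.86e-04), and Myl1 and Mylpf of muscle by 1.00 and 0.87 (0.00341 and 0.00732). The lens genes Cryaa, Cryba1 and Crygb rose by 2.00, 1.96 and 1.84 (0.0324, 0.0151 and 0.0406) from dim control signals. The other marker genes did not pass. The 5 corneal epithelium genes had a median log2 change of 0.11. On both transgenic arrays 4 of them were higher and 0 lower than both control arrays, against 21.1% and 23.6% of all probe sets tested. Some other genes of surface epithelia, picked only after their values were seen, went the other way and were lower in the transgenic samples. Muc4, a membrane mucin, fell by 1.04 and 0.79 on the log2 scale on its probe sets past the test (limma adjusted p = 0.0263 and 0.0324) and Mpzl2, an adhesion gene, by 0.73 on 1 probe set (0.0350). Krt4, Cdh1 and Col17a1, a keratin, the epithelial cadherin and a hemidesmosome collagen, stood at −0.55, −0.56 and −0.58 without passing. Sex-linked transcripts also differed, with Eif2s3y on the Y chromosome lower by a log2 change of −1.15 (adjusted p = 0.0372) and Xist, expressed in females, at 0.61 (adjusted p = 0.217) on its probe set with the smallest p. The tissues named here have clocks of their own, and the part of these marker and sex-linked differences in the clock values below was not tested. In bulk tissue, fewer cells of a type cannot be told apart from less RNA in each cell.

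The median changes of the 2 arms of the clock lay on opposite sides of 0 in the transgenic samples, although no clock probe set passed the test. As middle values, these medians were the changes of single genes, Nr1d1 and the dim Npas2. All 3 Per genes had the widest differences, with ratios of transgenic to control between 0.60 and 0.65, of signal + 16, on their brightest probe sets. Nr1d1, Tef and Dbp were lower by less, Nr1d2 and Clock were close to control, and Arntl and Npas2 were higher. The values stand for the brightest probe set of a gene unless stated. Changes are differences in log2(signal + 16), transgenic minus control, which understate the change of dim probe sets. They were tested with limma in 1 fit of 27022 probe sets with a mean above the 40th percentile, about a signal of 30.0, and 25 of the 26 clock probe sets entered that fit.

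**Figure D1:**
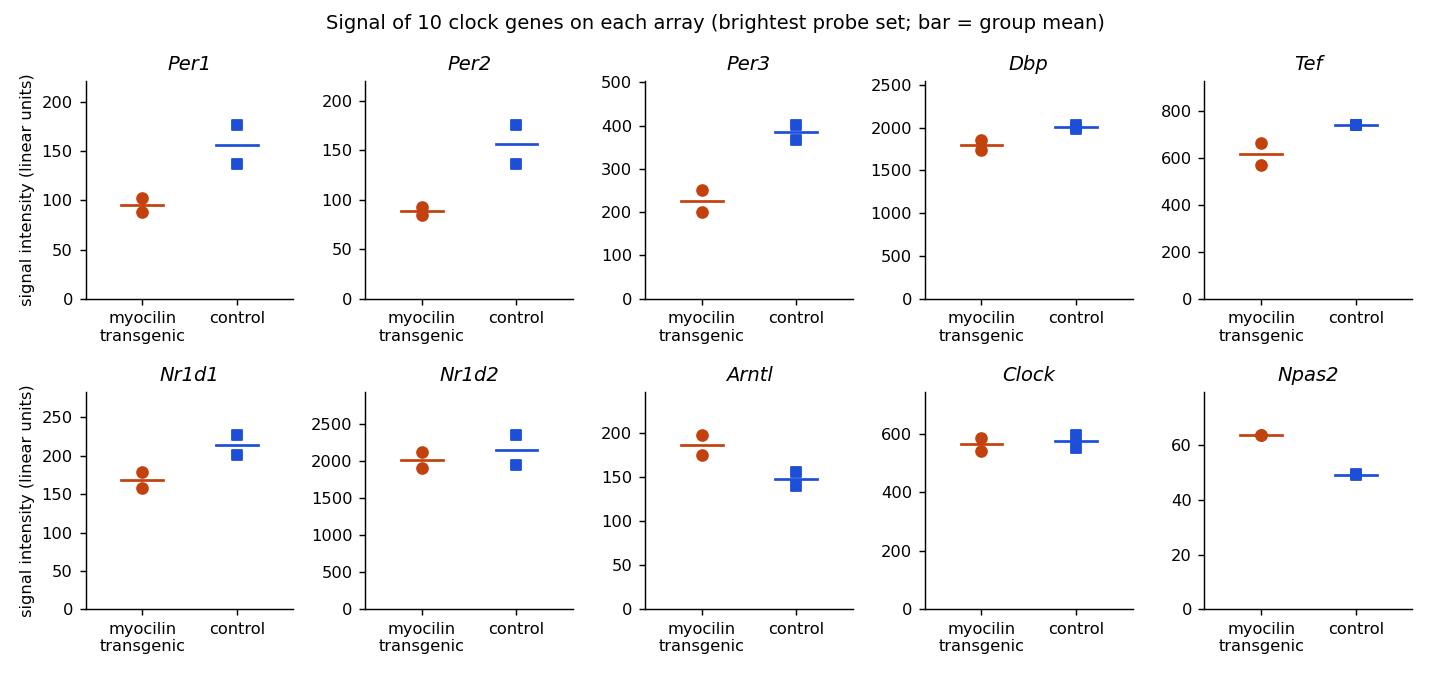
Signal intensity of the brightest probe set of each of the 10 clock genes, on linear axes that start at 0, for the 2 myocilin transgenic arrays (circles) and the 2 control arrays (squares), with bars at the group means. Both transgenic arrays lie below both control arrays for 6 genes and above them for Arntl and Npas2, while the groups overlap for Nr1d2 and Clock. Among all probe sets tested, 23.6% lay below and 21.1% above in this way.

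The period genes, whose proteins repress the activator, were lower on both transgenic arrays. Per1, a period gene that also responds rapidly to light and hormones, had signals of 103 and 87.7 on the transgenic arrays and 136 and 177 on the control arrays (1449851_at). Both transgenic arrays were low, and the control arrays themselves lay apart by 0.34 on the log2 scale. The change in Per1 was −0.63 ± 0.22 (log2, SE), with a limma p of 0.0159 and an adjusted p of 0.565.

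Per2, whose protein acts with cryptochromes to repress the activator, had signals of 92.9 and 84.5 on the transgenic arrays and 176 and 137 on the control arrays (1417602_at). The groups did not overlap, and the change was −0.71 ± 0.22 (log2, SE), with a limma p of 0.00829 and an adjusted p of 0.478. The other Per2 probe sets were dim and did not share a direction. On 1457350_at the signals were 41.0 and 50.7 on the transgenic and 64.5 and 59.2 on the control arrays, with a change of −0.34 ± 0.31. On 1417603_at they were 46.1 and 34.6 on the transgenic and 31.8 and 24.4 on the control arrays, with a change of 0.35 ± 0.36 in the other direction. The mean over the 3 Per2 probe sets was −0.23.

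Per3, a period gene that is dispensable for rhythm in mice, had the smallest p among the 10 genes. Its brightest probe set, 1421087_at, had signals of 251 and 201 on the transgenic arrays and 402 and 366 on the control arrays. The change was −0.73 ± 0.17 (log2, SE), with a 95% interval from −1.11 to −0.35, a limma p of 0.00132 and an adjusted p of 0.297. The next 2 in brightness were also low on both transgenic arrays. On 1458176_at the signals were 182 and 166 on the transgenic and 269 and 278 on the control arrays (−0.61 ± 0.17, adjusted p = 0.416). On 1460662_at they were 108 and 115 on the transgenic and 168 and 169 on the control arrays (−0.54 ± 0.21, adjusted p = 0.625). Control arrays agreed closely on these last 2 probe sets, to 0.04 and 0.01 on the log2 scale. The 3 dimmer Per3 probe sets overlapped between the groups, with changes of −0.20 ± 0.22, 0.05 ± 0.28 and 0.02 ± 0.30, and the mean over all 6 was −0.34. The Per3 probe sets share a gene and are not replicates of the condition.

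Dbp and Tef, the output factors of the PAR bZIP family that bind D-boxes, differed less. Dbp had signals of 1742 and 1857 on the transgenic arrays and 1985 and 2035 on the control arrays on 1438211_s_at, a probe set type that can match transcripts of more than 1 gene. The change was −0.16 ± 0.10 (log2, SE; limma adjusted p = 0.832), with a 95% interval from −0.39 to 0.07. Its other probe set, 1418174_at, gave 653 and 618 on the transgenic and 729 and 726 on the control arrays, with a change of −0.19 ± 0.12. Both Dbp probe sets were thus low on both transgenic arrays by a small amount.

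Tef had signals of 666 and 569 on the transgenic arrays and 741 and 744 on the control arrays (1424175_at), with a change of −0.26 ± 0.13 (log2, SE; limma adjusted p = 0.764). On 1450184_s_at the Tef signals were 166 and 152 on the transgenic and 169 and 149 on the control arrays, a change of 0.00 ± 0.19 (95% interval −0.42 to 0.42). On 1438033_at they were 78.8 and 94.4 on the transgenic and 98.6 and 23.0 on the control arrays. That last probe set had a change of 0.61 ± 0.27 with an unadjusted p of 0.0411, but the control arrays alone differed by 1.55 on the log2 scale, and with control replicate 1 alone both transgenic arrays were lower. The mean over the 3 Tef probe sets was 0.12, so the direction for Tef rests on its brightest probe set.

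The REV-ERB receptors, which repress Arntl through RORE sequences, were at or below control. Nr1d1 had signals of 158 and 179 on the transgenic arrays and 201 and 227 on the control arrays (1426464_at). The groups did not overlap, and the change was −0.32 ± 0.18 (log2, SE; limma adjusted p = 0.803). Nr1d2 had signals of 2119 and 1906 on the transgenic arrays and 2342 and 1943 on the control arrays (1416958_at), which overlapped. Its change was −0.09 ± 0.11, with a 95% interval from −0.32 to 0.15, and 0.05 without control replicate 1. A second Nr1d2 probe set, 1416959_at, also overlapped, at 182 and 140 on the transgenic and 218 and 169 on the control arrays.

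Of the activators, Arntl and Npas2 were higher on both transgenic arrays and Clock was not. Arntl, whose protein pairs with CLOCK or NPAS2, had signals of 197 and 175 on the transgenic arrays and 139 and 156 on the control arrays (1425099_a_at). The groups did not overlap, and the change was 0.30 ± 0.19 (log2, SE; limma adjusted p = 0.817), with a 95% interval from −0.11 to 0.71. The dimmer Arntl probe set, 1457740_at, overlapped, at 57.9 and 64.6 on the transgenic and 60.3 and 76.0 on the control arrays, with a change of −0.12 ± 0.28.

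Npas2, which can stand in for Clock, had signals of 63.5 and 63.6 on the transgenic arrays and 49.3 and 49.1 on the control arrays (1421037_at). Arrays within each group were nearly equal, but at this dim level the moderated test gave a change of 0.29 ± 0.29 (log2, SE; adjusted p = 0.918). The second Npas2 probe set, 1421036_at, was the 1 clock probe set below the filter, with signals of 3.52 and 2.04 on the transgenic and 1.40 and 3.17 on the control arrays, too dim to compare.

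Clock had signals of 587 and 540 on the transgenic arrays and 553 and 595 on the control arrays (1418659_at), which overlapped. The change was −0.03 ± 0.13 (log2, SE; limma adjusted p = 0.994), and the 95% interval ran from −0.31 to 0.26. The 3 other Clock probe sets also overlapped, with changes of 0.07 ± 0.24, 0.08 ± 0.21 and 0.23 ± 0.20. On the first of them, 1439314_at, the transgenic arrays lay apart at 199 and 334, against 246 and 244 on the control arrays. On 1418660_at the signals were 202 and 164 on the transgenic and 168 and 138 on the control arrays.

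**Figure D2:**
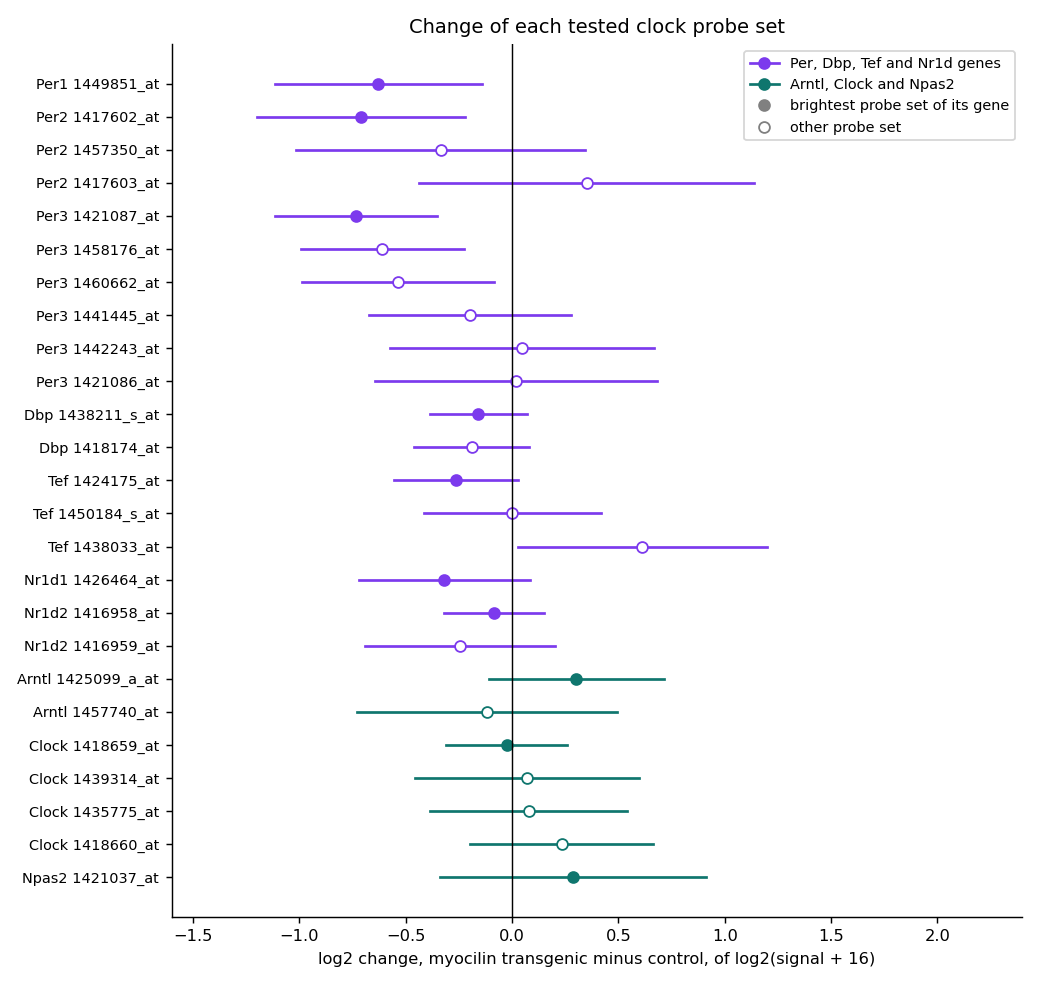
Log2 change, myocilin transgenic minus control, of the 25 tested clock probe sets with limma's 95% intervals, filled for the brightest probe set of each gene. Intervals lie below 0 for Per1, 1 Per2 probe set and 3 Per3 probe sets and above 0 for 1 Tef probe set, while those of Nr1d1, Nr1d2, Dbp, Arntl, Clock and Npas2 all include 0.

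Counted over probe sets, 0 of the 25 tested passed an adjusted p of 0.05 in limma, against 0.0777% of all probe sets tested (21 of 27022, and 33 without control replicate 2). At an unadjusted p under 0.05 there were 5 lower, all of Per genes, where the background was 2.92% lower, and 1 higher, that of Tef, where it was 4.14%. Both transgenic arrays lay below both control arrays for 10 of the 25, against 23.6% of all probe sets tested, and above them for 3, against 21.1%. All 10 of the lower ones belonged to the 18 probe sets of Per, Dbp, Tef and Nr1d genes, of which 1 was higher. Among the 7 tested probe sets of Arntl, Clock and Npas2, 0 were lower and 2 higher without overlap. The higher one in the Per, Dbp, Tef and Nr1d arm was the dim Per2 probe set 1417603_at, whose control mean of 28.1 lay under the filter signal of 30.0, so it entered the test only through its transgenic mean of 40.3.

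Set against each other, the medians of the arms stood apart on both transgenic arrays. With 1 probe set for each gene, all 7 genes of the Per, Dbp, Tef and Nr1d arm had changes below 0, with a median of −0.32. Arntl and Npas2 were above 0 and Clock slightly below, with a median for these 3 genes of 0.29, and over all probe sets tested the median change was −0.02. The 2 arm medians were thus the changes of Nr1d1 and of the dim Npas2 probe set. Taken over all probe sets of each arm, the medians were −0.22 and 0.075. Relative to the mean of the control arrays, the median of the Per, Dbp, Tef and Nr1d arm stood at −0.40 and −0.37 on the transgenic arrays and at −0.0025 and 0.0025 on the control arrays. That of Arntl, Clock and Npas2 stood at 0.29 and 0.22 on the transgenic arrays and at −0.05 and 0.05 on the control arrays. The difference between the arms was −0.69 and −0.60 on the transgenic arrays and 0.05 and −0.05 on the control arrays. The control values mirror each other because they are taken from the mean of those arrays, which are technical replicates, so they show technical spread alone, and both transgenic values are set against that same mean. No p is given for these medians, since the genes were chosen with earlier results of these data known. Averaged over all probe sets of each gene, the median was −0.23 for the Per, Dbp, Tef and Nr1d arm and 0.09 for Arntl, Clock and Npas2, so that the difference between the arms was −0.32 in place of −0.60.

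**Figure D3:**
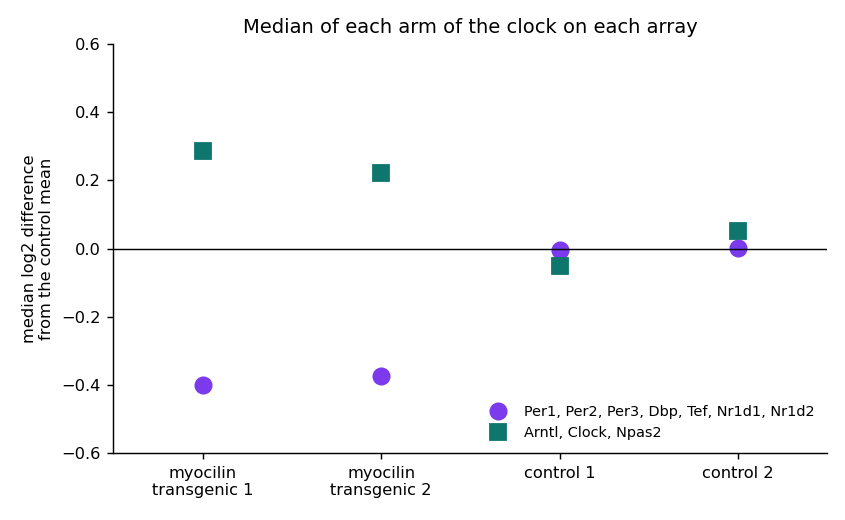
Median log2 difference from the mean of the control arrays, over the 7 genes of the Per, Dbp, Tef and Nr1d arm (circles) and over Arntl, Clock and Npas2 (squares), on each of the 4 arrays. The medians lie apart by 0.69 and 0.60 on the transgenic arrays, while the control arrays are technical replicates centred on their own mean and mirror each other around 0. Each point is the value of the middle gene of its arm.

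Other genes of the clock were taken from a list of 20, of which 18 had a probe set and 16 entered the test. None passed in limma (0 of 16), while 2 were lower and 1 higher at an unadjusted p under 0.05, where 2.92% and 4.14% of all probe sets tested were. On both transgenic arrays 6 of the 16 were lower and 3 higher than both control arrays, against 23.6% and 21.1% of all probe sets tested. The median change of the 16 was −0.16, and 13 of them were below 0, against 53.1% of all probe sets tested. Ciart, a repressor of the activator complex, had the widest change at −0.52 ± 0.40 (log2, SE), but its signals of 22.5 and 56.1 on the transgenic arrays and 58.8 and 60.8 on the control arrays include 1 transgenic array close to control. Usp2, which encodes a ubiquitin-specific protease under clock control, had signals of 168 and 189 on the transgenic and 259 and 255 on the control arrays, with a change of −0.49 ± 0.18 (adjusted p = 0.581). A dimmer Usp2 probe set, 1417168_a_at, overlapped between the groups at −0.22 ± 0.28. Csnk1e, which encodes a kinase that phosphorylates PER proteins, stood at −0.43 ± 0.21, but another tested Csnk1e probe set of similar brightness, 1417176_at, overlapped at −0.10 ± 0.19. Bhlhe41, a repressor that binds E-boxes, stood at −0.39 ± 0.34 with overlapping groups.

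Hlf, the third PAR bZIP factor beside Dbp and Tef, had signals of 498 and 531 on the transgenic arrays and 791 and 575 on the control arrays, with a change of −0.38 ± 0.13 (limma adjusted p = 0.531). It was named after its values were seen, as the PAR bZIP relative of Dbp and Tef, and its control arrays differed from each other more than its transgenic arrays did. Nfil3, a repressor that competes for D-boxes and is itself held down by REV-ERB, had signals of 43.1 and 43.5 on the transgenic and 25.9 and 36.8 on the control arrays, with a change of 0.33 ± 0.34. The cryptochromes, which repress the activator together with the PER proteins, stayed near control. Cry1 had signals of 142 and 142 on the transgenic and 133 and 131 on the control arrays (0.10 ± 0.20), and Cry2 had 110 and 108 on the transgenic and 99.4 and 122 on the control arrays (−0.02 ± 0.22). Nampt, the enzyme of NAD synthesis and a clock output, was the 1 gene whose brightest probe set was higher at an unadjusted p under 0.05. Its signals were 358 and 368 on the transgenic and 273 and 286 on the control arrays (0.36 ± 0.15, adjusted p = 0.650), and it too was named after its values were seen. A less bright probe set of Csnk1d, 1456727_a_at, stood at 0.31 ± 0.13 (limma unadjusted p = 0.0357) with overlapping groups, while the brightest of that gene stood at −0.04 ± 0.12.

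**Figure D4:**
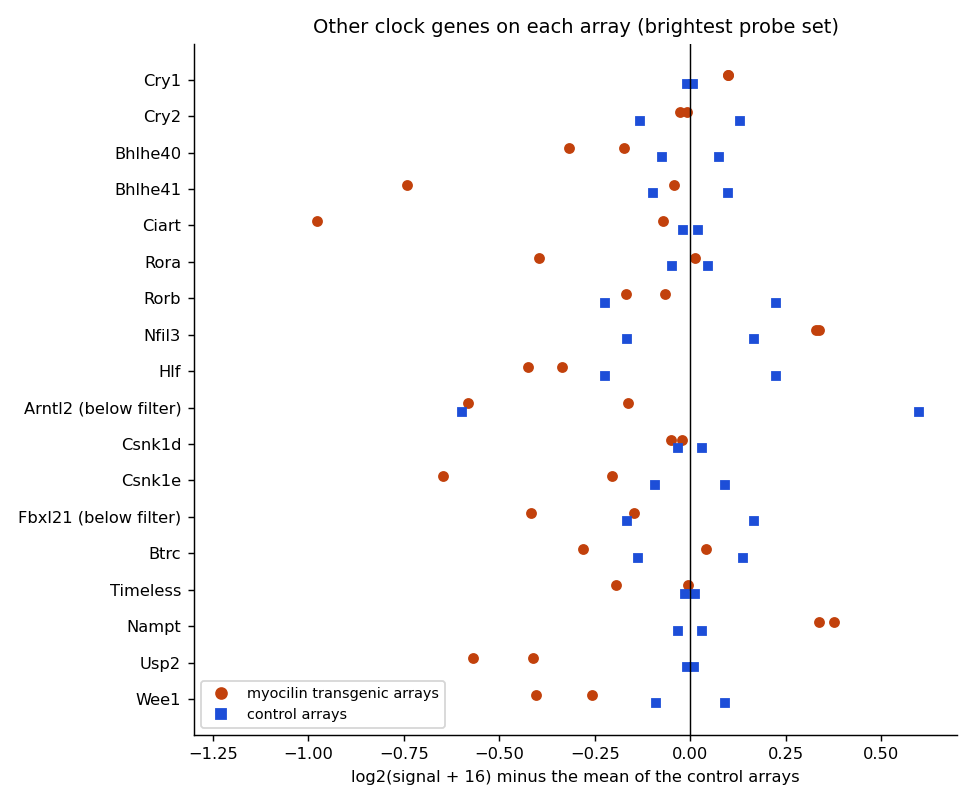
Log2(signal + 16) of the brightest probe set of 18 other clock genes on each array, as a difference from the mean of the control arrays, for the transgenic (circles) and control arrays (squares). Usp2 and Nampt stand clear of closely spaced control arrays, on opposite sides, while 1 transgenic array is far lower than the other for Ciart and Bhlhe41.

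The genes most like the Per genes were sought among the other tested probe sets with 1 symbol, by the Euclidean distance over 4 arrays from the mean profile of Per1, Per2 and Per3. The closest were Fam214b at a distance of 0.036 and Cd109 at 0.052, followed by Nktr at 0.052, Ssr4 at 0.059 and Tns4 at 0.063, in units of log2. Fam214b had signals of 222 and 192 on the transgenic arrays and 359 and 337 on the control arrays. With 4 arrays, such likeness says only that the signals of a gene differ between the arrays by similar amounts.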

How the data were processed

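Total RNA from tissue labelled retina was hybridised to 4 one-colour arrays, 2 from myocilin transgenic and 2 from control mice. The values deposited by the authors are linear signal intensities, 1 per probe set and array, and the software that made them is not given in the sources used here. Trimmed means differed by under 5%, so the intensities were used as deposited. The number of arrays limits the precision.

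The 64 array controls were left out. Signals were transformed as log2(signal + 16), control arrays were averaged into 1 sample, and probe sets above the 40th percentile were tested with limma 3.58.1 in R 4.3.3 (empirical Bayes with intensity trend, two-sided, Benjamini-Hochberg adjustment over all probe sets tested, threshold 0.05). The fit had 1 residual and 10.3 prior degrees of freedom, which takes the spread of the single control sample to equal that of the transgenic ones. The code was tested on simulated data. The platform annotation gave the gene names. Named genes are all 10 clock genes, the 4 other clock genes with the largest change, Cry1, Cry2, Nfil3, up to 3 genes of each further list, and the 5 profiles nearest to the Per genes. Hlf, Nampt, Csnk1d, Sgk1, Mt1 and Mt2 fall outside that rule and were named after their values were seen. The marker genes that passed and the epithelial and sex-linked genes were so named too. The members and lists were chosen with earlier results of these data known. Alternatives covered scaling, pseudocount, filter, moderation, control replicates, left-out arrays and averaging over probe sets.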

Additional observations from a re-analysis of the deposited data

How the results depend on the processing

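No clock probe set passed an adjusted p of 0.05 in limma in 11 of the 12 alternatives with a test, with smallest adjusted p between 0.0529 and 0.999. The exception was the replicate block with 4 separate arrays, where 5 did, among them Per1 (adjusted p = 0.0276), Per2 (0.00992) and Per3 (9.72e-05). That fit called 1740 probe sets in all, but the labels make the control arrays technical replicates of 1 sample. By those labels the replicate numbers do not pair samples. The differences between arrays 1 and 2 correlated at 0.096 between the groups, a value that cannot by itself show whether arrays pair. Over all probe sets, 21 were called (15 higher, 6 lower), against 39 after quantile normalization (20 higher, 19 lower), 177 after median centring (142 higher, 35 lower), 135 with 4 separate arrays, 14 without control replicate 1, 33 without control replicate 2, and 0 in limma without the filter or without the intensity trend, where 2181 and 1059 had an unadjusted p under 0.05. Leaving out a transgenic array left no test.

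The median of the Per, Dbp, Tef and Nr1d arm, −0.32, was −0.28 after quantile normalization, −0.29 after median centring, −0.34 at a pseudocount of 1, −0.26 at 64, −0.23 averaged over probe sets, and −0.40 to −0.26 with 1 array left out. The median of Arntl, Clock and Npas2, 0.29, was 0.17 at a pseudocount of 64, 0.092 averaged over probe sets and 0.22 to 0.29 with 1 array left out. The difference between the arms, −0.60, was −0.67 at a pseudocount of 1, −0.43 at 64, −0.32 averaged over probe sets and −0.69 to −0.55 with 1 array left out. The sign turned for Clock after median centring (0.0037), without control replicate 2 (0.026) and without myocilin transgenic replicate 2 (0.032, against −0.083 without myocilin transgenic replicate 1) and averaged over probe sets (0.090), for Nr1d2 without control replicate 1 (0.048, against −0.22 without control replicate 2) and for Tef averaged over probe sets (0.12). Per1, Per2, Per3, Dbp and Nr1d1 stayed below 0 and Arntl and Npas2 above 0 in every alternative run, with Per3 between −0.88 and −0.34.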

Other observations

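Per1 and Per2 also respond to glucocorticoids and to acute stimuli, and 2 further lists give the levels of such genes on the same arrays. Any link between these lists and the Per values was not tested. Of 11 glucocorticoid-induced genes, 7 were lower and 1 higher on both transgenic arrays than on both control arrays, against 23.6% lower and 21.1% higher among all probe sets tested, with a median change of −0.32. Tsc22d3, a glucocorticoid-induced leucine zipper gene, fell by 1.01 ± 0.12 on the log2 scale (limma adjusted p = 0.00732), with signals of 631 and 643 on the transgenic and 1245 and 1350 on the control arrays. It was the 1 gene of the 11 that passed, against 0.0777% of all probe sets tested. At an unadjusted limma p under 0.05, 5 of the 11 were lower and 0 higher, where the background was 2.92% and 4.14%. Zbtb16, a zinc finger repressor, stood at −0.86 ± 0.27 (adjusted p = 0.484) and Fkbp5, a chaperone partner of the glucocorticoid receptor, at −0.68 ± 0.18 (adjusted p = 0.363), its control arrays being apart at 209 and 336. Sgk1, a kinase induced by the same hormones, had signals of 4955 and 4618 on the transgenic and 4553 and 5086 on the control arrays, a change of −0.01 ± 0.10; it and the metallothioneins Mt1 (0.17 ± 0.10) and Mt2 (0.03 ± 0.10) were named after their values were seen.

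Of 12 immediate early genes, 10 entered the test, with a median change of 0.02, and 5 were higher and 1 lower on both transgenic arrays, against 21.1% higher and 23.6% lower among all probe sets tested. None passed in limma (0 of 10), while at an unadjusted p under 0.05 there were 2 higher and 1 lower, where the background was 4.14% and 2.92%. Atf3, a stress-induced factor and 1 of the 5, was dim and entered the test only through its transgenic mean of 47.8, with signals of 48.0 and 47.5 on the transgenic and 20.4 and 26.0 on the control arrays. Jun, a subunit of AP-1, had 617 and 683 on the transgenic and 415 and 558 on the control arrays (0.42 ± 0.13, adjusted p = 0.468). Fosb was below the filter, at 27.4 and 31.3 on the transgenic and 13.6 and 14.7 on the control arrays.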
